A study of Sus scrofa with 3 samples.

Results

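The genes of the fibroblast growth factor (FGF), epidermal growth factor (EGF) and hepatocyte growth factor (HGF) systems were examined in 3 pig (Sus scrofa) cell populations with 1 library each. BM-MSC stands for mesenchymal stem cells from bone marrow, BMAC for what the submitters label bone marrow attached cells, and PBMC for mononuclear cells of peripheral blood. Genes were chosen by symbol, with earlier results of these data known. They were numbered FGF genes, FGF receptors, ERBB receptors, neuregulins, the EGF receptor, 6 of its ligands, HGF with its receptor, and 4 feedback inhibitors. That gave 47 of the 26466 symbols in the count tables. The series was made to compare expression profiles among the 3 populations. The labels used here name no strain, age, treatment, culture passage or animal, so the groups are described by cell type alone, and whether they share an animal is unknown.

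FGFs, EGF-like ligands and HGF are secreted or shed proteins that activate receptor tyrosine kinases at the cell surface. FGFs bind their receptors together with heparan sulfate chains, EGF-like ligands are cut from membrane-bound precursors, and HGF is secreted as a precursor that proteases activate. All 3 systems feed the RAS-ERK cascade, whose output includes its own inhibitors, such as the Sprouty proteins and ERRFI1. FGF2 is widely used as a mitogen in stromal cell culture, and FGF7 and HGF are known as stromal factors that act on other cells. FGF11 to FGF14 are the exception among the FGFs. They stay inside the cell and regulate voltage-gated sodium channels, and they are not classical receptor ligands.

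Total counts were 17069344 in BM-MSC, 15122997 in BMAC and 15445903 in PBMC. Levels are given as counts per 1000000 counts of the library (CPM). The libraries were made from RNA 3' ends. Levels are compared between libraries for the same gene and are not ranked between genes. Sums over several genes are given as a description. The populations carried the markers of their labels. All 8 stromal markers were at 10 CPM or more in BM-MSC and BMAC, with summed levels of 13200 and 10900 CPM against 59.6 CPM in PBMC. The 3 pan-leukocyte markers summed to 1.82 CPM in BM-MSC, 2.05 in BMAC and 4260 in PBMC. Rows of ribosomal RNA took 15.5% of counts in BM-MSC, 11.4% in BMAC and 5.29% in PBMC. A gene was called different between a pair of libraries by size alone, when log2((CPM + 1)/(CPM + 1)) was at least 2 in size. The rule was applied where the library with more held 10 CPM or above, and genes past that floor are called tested. By this rule 30.0% of tested genes were called in BM-MSC against PBMC, 26.8% in BMAC against PBMC and 6.11% in BM-MSC against BMAC, in either direction. Both comparisons with PBMC use the same PBMC library. With 1 library per population no difference has a replicate check and no p-value is given. Intervals in parentheses are exact 95% intervals for counting error only, Poisson for a level and conditional for a fold. In bulk libraries fewer cells of a type and less RNA per cell cannot be told apart.

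Between the marrow populations, 23 of the 47 genes were tested and 4 of them (17.4%) were past the size rule towards BMAC, against 3.21% of all tested genes. Of these 4, 3 were EGF receptor ligands, and 2 of those, EREG and BTC, were tested through BMAC alone. AREG, the ligand amphiregulin, stood at 11.9 CPM (10.3 to 13.6) in BM-MSC, 393 (383 to 403) in BMAC and 1.88 (1.26 to 2.70) in PBMC. It was 33.0-fold lower in BM-MSC than in BMAC (28.7 to 38.1), the 22nd lowest log2 ratio of 10303 genes tested in that pair. EREG, the ligand epiregulin, stood at 9.14 CPM (7.76 to 10.7) in BM-MSC, 168 (162 to 175) in BMAC and 4.53 (3.53 to 5.73) in PBMC. BMAC was the high library for both genes, and BM-MSC lay closer to PBMC than to BMAC. EREG was 18.4-fold lower in BM-MSC than in BMAC (15.7 to 21.8).

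BTC, betacellulin, a ligand of EGFR and ERBB4, had the same order of libraries. It stood at 3.98 CPM (3.09 to 5.05) in BM-MSC, 21.9 (19.6 to 24.4) in BMAC and 0.971 (0.544 to 1.60) in PBMC, 5.49-fold lower in BM-MSC than in BMAC (4.22 to 7.24). AREG, EREG and BTC were also higher in BMAC than in PBMC, by 209-fold (145 to 312), 37.2-fold (29.3 to 47.8) and 22.5-fold (13.5 to 40.7). In BM-MSC against PBMC only AREG of these 3 was past the size rule, at 6.33-fold (4.28 to 9.70). EREG was 2.02-fold higher there (1.51 to 2.71) and BTC 4.10-fold (2.32 to 7.73), with both below 10 CPM in each of those libraries. These 3 genes are neighbours on chromosome 8 of the RefSeq assembly Sscrofa11.1, in the order EREG, AREG, BTC.

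Of the 6 EGFR ligands chosen here, the remaining TGFA, HBEGF and EGF were not higher in BMAC than in PBMC. TGFA, transforming growth factor alpha, held 9 counts in BM-MSC, 10 counts in BMAC and 213 counts in PBMC, or 0.527, 0.661 and 13.8 CPM. It was 26.2-fold lower in BM-MSC (13.5 to 58.0) and 20.9-fold lower in BMAC (11.1 to 44.1) than in PBMC. HBEGF, a heparin-binding ligand, stood at 19.2 CPM in BM-MSC, 20.2 in BMAC and 36.9 in PBMC. It was 1.93-fold lower in BM-MSC (1.68 to 2.21) and 1.82-fold lower in BMAC (1.58 to 2.10) than in PBMC. BM-MSC and BMAC did not differ in HBEGF beyond counting error (0.947-fold, 0.808 to 1.11), and with a total without ribosomal RNA and mitochondrial rows the sign of that log2 ratio turned from -0.08 to 0.01. EGF itself stayed below 10 CPM, with 32 counts in BM-MSC, 14 counts in BMAC and 69 counts in PBMC. The 6 ligands together summed to 46.6 CPM in BM-MSC (43.4 to 49.9), 605 CPM in BMAC (592 to 617) and 62.5 CPM in PBMC (58.7 to 66.6). AREG alone gave 5936 of the 9144 counts behind the BMAC sum.

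Markers of other cell types were read beside these ligands. The 6 monocyte and macrophage markers summed to 8.90 CPM in BM-MSC, 20.6 in BMAC and 415 in PBMC. In BMAC, CD14 made up most of that sum at 17.3 CPM, while LYZ, CSF1R and TYROBP held 0, 2 and 3 counts there. The 6 epithelial markers summed to 21.4 CPM in BM-MSC, 25.4 in BMAC and 19.9 in PBMC. CDH3 gave most of the marrow sums at 19.1 CPM in BM-MSC and 23.4 in BMAC, while EPCAM, KRT8, KRT18 and KRT19 held between 0 and 9 counts in every library. The part of such cells in the ligand levels was not tested.

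Among the ERBB receptors the libraries split by gene. EGFR, the receptor of all 6 ligands above, stood at 84.1 CPM (79.8 to 88.6) in BM-MSC, 144 (138 to 150) in BMAC and 1.68 (1.10 to 2.47) in PBMC. It was 50-fold higher in BM-MSC (34.0 to 76.8) and 85.6-fold higher in BMAC (58.3 to 131) than in PBMC. ERBB2, the coreceptor without a known ligand of its own, stood at 19.0 CPM in BM-MSC, 15.6 in BMAC and 2.01 in PBMC. Both marrow libraries were thus above PBMC for EGFR and ERBB2, by 9.49-fold (6.55 to 14.2) in BM-MSC and 7.78-fold (5.33 to 11.7) in BMAC for ERBB2.

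ERBB4, a neuregulin receptor, had the opposite order. It stood at 72.4 CPM (68.4 to 76.5) in BM-MSC, 19.9 (17.7 to 22.3) in BMAC and 203 (196 to 210) in PBMC. The intervals of the 3 libraries did not overlap. ERBB4 was 10.2-fold lower in BMAC than in PBMC (9.04 to 11.5), past the size rule, and 2.80-fold lower in BM-MSC than in PBMC (2.62 to 2.99), which was not. Between the marrow libraries it was 3.64-fold higher in BM-MSC (3.20 to 4.14), also short of the rule. ERBB3, the other neuregulin receptor, stayed low with 23 counts in BM-MSC, 4 counts in BMAC and 15 counts in PBMC.

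Neuregulins are EGF-like ligands of ERBB3 and ERBB4. NRG1 stood at 34.3 CPM in BM-MSC, 63.4 in BMAC and 75.7 in PBMC. BMAC lay 1.19-fold below PBMC (1.10 to 1.30), and the sign of this log2 ratio depended on the scaling, at -0.25 by library totals, 0.02 by TMM and 0.03 by median-of-ratios. BM-MSC lay 2.21-fold below PBMC (2.0 to 2.44). NRG4 stood at 60.4 CPM in BM-MSC, 23.5 in BMAC and 14.2 in PBMC. It was 4.24-fold higher in BM-MSC than in PBMC (3.66 to 4.93), so the interval reached below 4-fold. Its row overlaps that of FBXO22, an F-box protein gene, which was 4.19-fold higher in the same pair (3.74 to 4.70). Because strand use in counting is not given, the signals of such overlapping rows cannot be told apart. NRG3 stood at 6.09 CPM in BM-MSC, 6.22 in BMAC and 15.1 in PBMC, 2.48-fold lower in BM-MSC (1.96 to 3.15) and 2.43-fold lower in BMAC (1.90 to 3.12) than in PBMC. NRG2 was between 1.58 and 2.52 CPM in the 3 libraries. None of the 4 neuregulins was past the rule in BMAC against PBMC or in BM-MSC against BMAC.

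**Figure D1:**
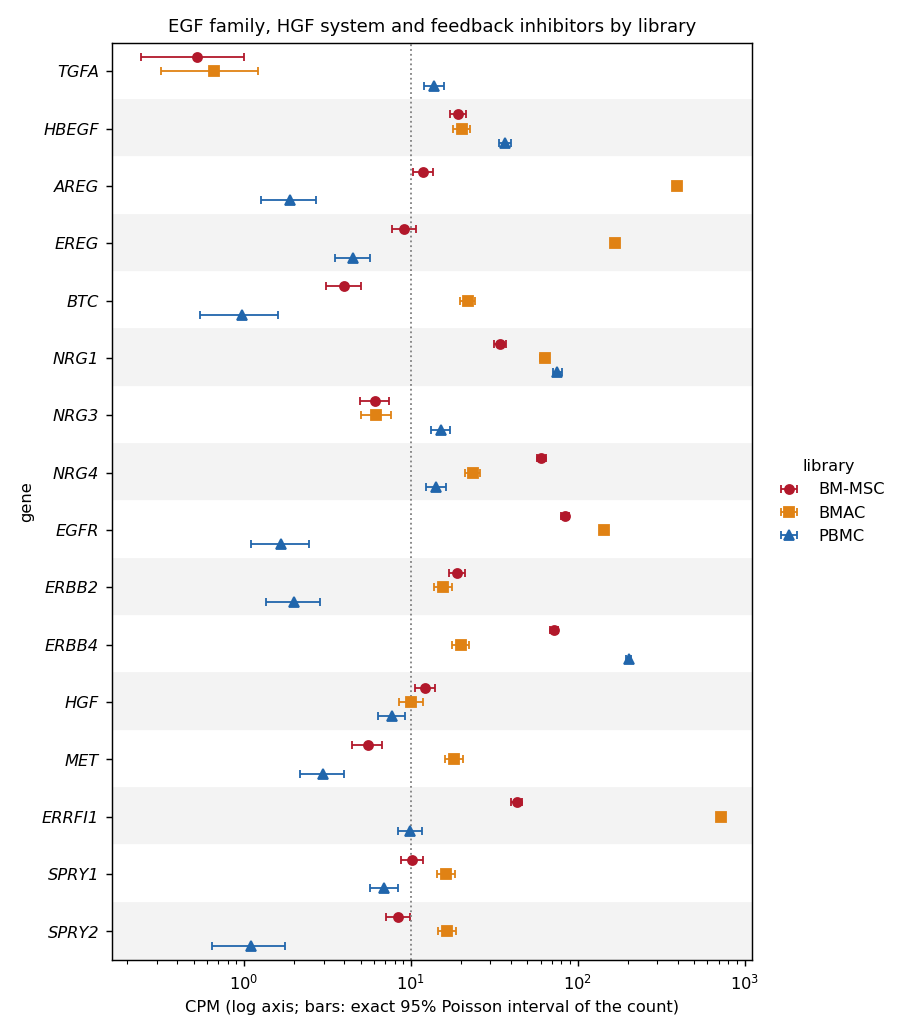
Levels in CPM (log axis) of the EGF family, HGF system and feedback inhibitor genes that reached 10 CPM (dotted line) in at least 1 library, with 1 symbol per library and exact 95% Poisson intervals as bars. AREG, EREG and ERRFI1 stand at 393, 168 and 728 CPM in BMAC, far right of the other libraries, while TGFA and ERBB4 are highest in PBMC.

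ERRFI1 (also called MIG6) is a cytoplasmic inhibitor that binds ERBB kinase domains and is itself induced by EGFR signalling. It stood at 43.1 CPM (40.1 to 46.3) in BM-MSC, 728 (715 to 742) in BMAC and 9.91 (8.40 to 11.6) in PBMC. It shared the order of AREG, EREG and BTC, with BMAC first and BM-MSC second. ERRFI1 was 16.9-fold lower in BM-MSC than in BMAC (15.7 to 18.2), the 55th lowest log2 ratio of the pair beside EREG as the 54th. Against PBMC it was 73.5-fold higher in BMAC (62.7 to 86.8) and 4.35-fold higher in BM-MSC (3.65 to 5.22), where the interval included 4-fold.

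Sprouty proteins inhibit RAS-ERK signalling downstream of FGF receptors. SPRY2 stood at 8.38 CPM in BM-MSC, 16.5 in BMAC and 1.10 in PBMC, 15-fold higher in BMAC than in PBMC (9.16 to 26.1). In BM-MSC it was 7.61-fold above PBMC (4.59 to 13.4) but short of 10 CPM. SPRY1 stood at 10.2 CPM in BM-MSC, 16.3 in BMAC and 6.93 in PBMC, not past the rule in any pair. SPRY4 held 16 counts in BM-MSC, 22 counts in BMAC and 0 counts in PBMC, where the exact 95% upper limit was 0.239 CPM. With 0 taken as 3 counts, its fold over PBMC was 4.83 for BM-MSC and 7.49 for BMAC, and the exact 95% lower limits were 3.49 and 5.59. Thus BMAC held more than BM-MSC of each of the 4 inhibitors, but for SPRY4 the difference was within counting error (0.644-fold in BM-MSC, 0.316 to 1.28).

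Of the 15 secreted paracrine FGFs, FGF2, FGF7 and FGF10 reached 10 CPM in some library. FGF2, basic FGF, stood at 315 CPM (307 to 323) in BM-MSC, 141 (135 to 147) in BMAC and 20.7 (18.4 to 23.0) in PBMC. It was 15.2-fold higher in BM-MSC (13.6 to 17.1) and 6.81-fold higher in BMAC (6.05 to 7.68) than in PBMC, and 2.24-fold higher in BM-MSC than in BMAC (2.13 to 2.36). Its row overlaps NUDT6, known in mammals as the antisense partner of FGF2, which stood at 224 CPM in BM-MSC, 72.6 in BMAC and 17.1 in PBMC. Both rows therefore had the same order of libraries.

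FGF7, keratinocyte growth factor, had the marrow libraries in the other order. It stood at 155 CPM (150 to 162) in BM-MSC, 360 (351 to 370) in BMAC and 15.2 (13.3 to 17.3) in PBMC. It was 10.2-fold higher in BM-MSC (8.94 to 11.7) and 23.7-fold higher in BMAC (20.8 to 27.1) than in PBMC. BM-MSC was 2.32-fold below BMAC (2.21 to 2.43), short of the rule. The overlapping row FAM227B stood at 197 CPM in BM-MSC, 394 in BMAC and 58.6 in PBMC, and its folds over PBMC were smaller, at 3.36 (3.12 to 3.62) in BM-MSC and 6.72 (6.26 to 7.21) in BMAC.

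FGF10, the closest relative of FGF7 and like it a ligand of the FGFR2 IIIb isoform, reached 10 CPM in BM-MSC and in neither other library. It held 217 counts in BM-MSC, 10 counts in BMAC and 4 counts in PBMC, or 12.7, 0.661 and 0.259 CPM. It was 19.2-fold higher in BM-MSC than in BMAC (10.3 to 40.7), the 134th highest log2 ratio of the pair, and 49.1-fold higher than in PBMC (18.9 to 182). FGF10 was the 1 gene of the 47 past the rule towards BM-MSC against BMAC. The overlapping unnamed row LOC102161640 held more counts than FGF10 in every library, at 1044 in BM-MSC, 76 in BMAC and 116 in PBMC.

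Other paracrine FGFs were low. FGF5, whose row overlaps LOC106508356, stood at 6.39 CPM in BM-MSC, 5.89 in BMAC and 0.518 in PBMC, 12.3-fold (6.04 to 29.3) and 11.4-fold (5.52 to 27.1) above PBMC. FGF1, acidic FGF, stood at 5.51, 5.03 and 1.29 CPM in the same order, 4.25-fold (2.60 to 7.28) and 3.88-fold (2.35 to 6.71) above PBMC. For both genes BM-MSC and BMAC did not differ beyond counting error, at 1.09-fold (0.813 to 1.45) for FGF5 and 1.10-fold (0.801 to 1.5) for FGF1. FGF9 held 22 counts in BM-MSC, 32 counts in BMAC and 7 counts in PBMC. FGF18 ran the other way, with 3 counts in BM-MSC, 5 counts in BMAC and 20 counts in PBMC. FGF22 was nearly level at 7.21 CPM in BM-MSC, 7.34 in BMAC and 7.83 in PBMC, but its row overlaps RNF126, whose count was larger in each library. FGF3, FGF6 and FGF16 held at most 6 counts in any library. FGF4, FGF8, FGF17 and FGF20 had 0 counts in all 3, which allows up to 0.176 CPM in BM-MSC, 0.198 in BMAC and 0.194 in PBMC.

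The endocrine FGFs act as hormones through Klotho coreceptors and were near the limit of detection. FGF23, a regulator of phosphate made mainly in bone, held 7 counts in BM-MSC, 0 counts in BMAC and 16 counts in PBMC. With 0 taken as 3 counts it was 5.22-fold lower in BMAC than in PBMC, and the exact 95% lower limit of that fold was 3.78. FGF21 held 6 counts in BM-MSC and 0 in BMAC and PBMC, and FGF19 held at most 2 counts.

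The rows of the intracellular FGF homologous factors held counts in every library. FGF12 stood at 67.3 CPM in BM-MSC, 139 in BMAC and 8.74 in PBMC, 7.69-fold higher in BM-MSC (6.43 to 9.27) and 15.9-fold higher in BMAC (13.3 to 19.0) than in PBMC. FGF11 stood at 28.0 CPM in BM-MSC, 65.5 in BMAC and 13.0 in PBMC, past the rule in BMAC against PBMC at 5.04-fold (4.32 to 5.89). The FGF11 row overlaps that of TMEM102, and their counts were within 2 of each other in BM-MSC, 22 in BMAC and 2 in PBMC. The presence and fold of FGF11 therefore cannot be told apart from those of TMEM102. FGF13 stood at 19.7, 30.1 and 8.48 CPM in BM-MSC, BMAC and PBMC and was not past the rule in any pair. FGF14 differed from these 3 in its order, at 9.43 CPM in BM-MSC, 5.49 in BMAC and 12.6 in PBMC.

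FGFR1, FGFR2 and FGFR3 were past the rule in BM-MSC against PBMC, and FGFR1 alone was tested and past it in BMAC against PBMC. FGFR1 stood at 60.5 CPM (56.9 to 64.3) in BM-MSC, 95 (90.1 to 100) in BMAC and 3.63 (2.74 to 4.71) in PBMC. It was 16.7-fold higher in BM-MSC (12.8 to 22.3) and 26.2-fold higher in BMAC (20.1 to 34.8) than in PBMC. FGFR2 stood at 16.3 CPM (14.4 to 18.3) in BM-MSC, 7.21 (5.92 to 8.69) in BMAC and 0.906 (0.496 to 1.52) in PBMC. FGFR3 stood at 11 CPM (9.50 to 12.7) in BM-MSC, 3.70 (2.80 to 4.81) in BMAC and 1.68 (1.10 to 2.47) in PBMC. Against PBMC the BM-MSC folds were 18.0 (10.5 to 33.3) for FGFR2 and 6.54 (4.33 to 10.3) for FGFR3, both past the rule, and in BMAC neither gene reached 10 CPM. FGFR2 and FGFR3 were thus higher in BM-MSC than in BMAC, by 2.26-fold (1.80 to 2.85) and 2.97-fold (2.20 to 4.08), while FGFR1 was 1.57-fold lower there (1.45 to 1.70).

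FGFRL1, a receptor-like protein without a kinase domain, held 117 counts in BM-MSC, 43 counts in BMAC and 2 counts in PBMC. It was below 10 CPM throughout and 2.41-fold higher in BM-MSC than in BMAC (1.69 to 3.50). FGFR4 held 4 counts in BM-MSC, 1 count in BMAC and 1 count in PBMC. The 5 receptor genes summed to 94.9 CPM in BM-MSC, 109 in BMAC and 6.41 in PBMC.

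**Figure D2:**
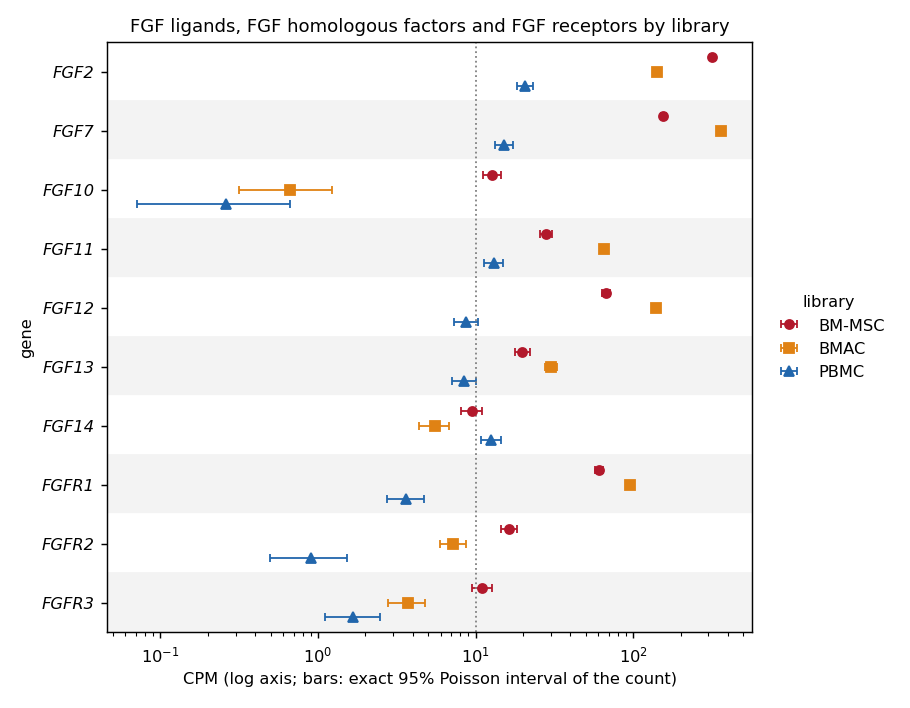
Levels in CPM (log axis) of FGF ligands, FGF homologous factors and FGF receptors that reached 10 CPM (dotted line) in at least 1 library, with 1 symbol per library and exact 95% Poisson intervals as bars. FGF2, FGF10, FGFR2 and FGFR3 are highest in BM-MSC, whereas FGF7, FGF11, FGF12, FGF13 and FGFR1 are highest in BMAC. The FGF11 row cannot be told apart from that of TMEM102.

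HGF is a mesenchymal ligand that acts through the receptor MET on epithelial and other cells. HGF stood at 12.2 CPM (10.6 to 14.0) in BM-MSC, 10.1 (8.52 to 11.8) in BMAC and 7.70 (6.38 to 9.22) in PBMC. BM-MSC and BMAC did not differ in HGF beyond counting error (1.22-fold, 0.984 to 1.51), and the folds over PBMC were 1.59 (1.26 to 2.01) in BM-MSC and 1.30 (1.02 to 1.67) in BMAC. Its row overlaps the unnamed row LOC110255496, which held 131 counts in BM-MSC, 202 counts in BMAC and 127 counts in PBMC. MET stood at 5.51 CPM (4.45 to 6.74) in BM-MSC, 18.2 (16.1 to 20.5) in BMAC and 2.98 (2.18 to 3.97) in PBMC. It was 6.11-fold higher in BMAC than in PBMC (4.46 to 8.54), and 3.30-fold lower in BM-MSC than in BMAC (2.60 to 4.22), short of the rule.

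Set against all genes, the 3 pairs read as follows. Of the 47 genes, 26 reached 10 CPM in at least 1 library, and 7 of these were highest in BM-MSC, 13 in BMAC and 6 in PBMC. These are 26.9%, 50% and 23.1% of the members, against 28.5%, 25.5% and 46.0% of the 11861 genes at 10 CPM or more in some library. In BM-MSC against PBMC, 12 members were higher and TGFA was lower, where 14.3% of 11428 tested genes were called higher and 15.7% lower, 30.0% in all. In that pair 22 members were tested, with a median log2 ratio of 2.01 against -0.16 over all tested genes. In BMAC against PBMC, 13 members were higher, and TGFA and ERBB4 were lower, where 14.0% of 11371 tested genes were called higher and 12.8% lower, 26.8% in all. The 23 members tested there had a median of 2.27 against -0.12 over all. Most of the higher members were tested through the marrow library alone: 3 of the 12 and 3 of the 13 also reached 10 CPM in PBMC. Those were FGF2, FGF7 and NRG4 for BM-MSC, and FGF2, FGF7 and FGF11 for BMAC. Each of them overlaps another row, so no higher call was both above the floor in PBMC and free of such an overlap. The counts and medians are therefore given as a description.

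In BM-MSC against BMAC, 1 member was higher and 4 were lower, where 2.90% of 10303 tested genes were called higher and 3.21% lower, 6.11% in all. Among the 23 members tested, 16 reached 10 CPM in both libraries, and the median log2 ratio was -0.64 against -0.09 over all tested genes. AREG and ERRFI1 were called with both libraries above 10 CPM, and EREG, BTC and FGF10 were tested through the higher library alone. Other scalings shifted all genes: by TMM and by median-of-ratios the overall median log2 ratio was 0.23 and 0.26 in BM-MSC against PBMC, and 0.21 and 0.22 in BMAC against PBMC. Under these scalings the share of called genes that were higher in BM-MSC than in PBMC was 58.5% and 59.5%, against 47.6% with library totals, while each set of called members stayed the same.

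**Figure D3:**
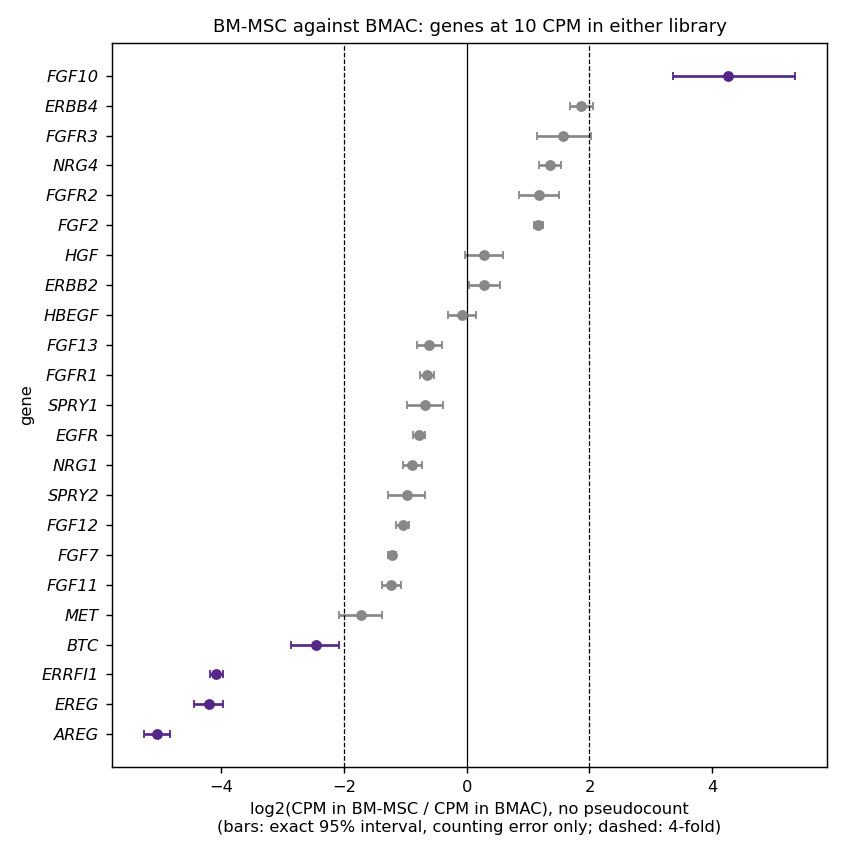
Ratio of CPM in BM-MSC to CPM in BMAC (log2, no pseudocount) for the 23 genes at 10 CPM or more in either library, with exact 95% intervals for counting error and 4-fold marked by dashed lines. The genes past the size rule, in purple, are FGF10 on the BM-MSC side and AREG, EREG, ERRFI1 and BTC on the BMAC side.

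**Figure D4:**
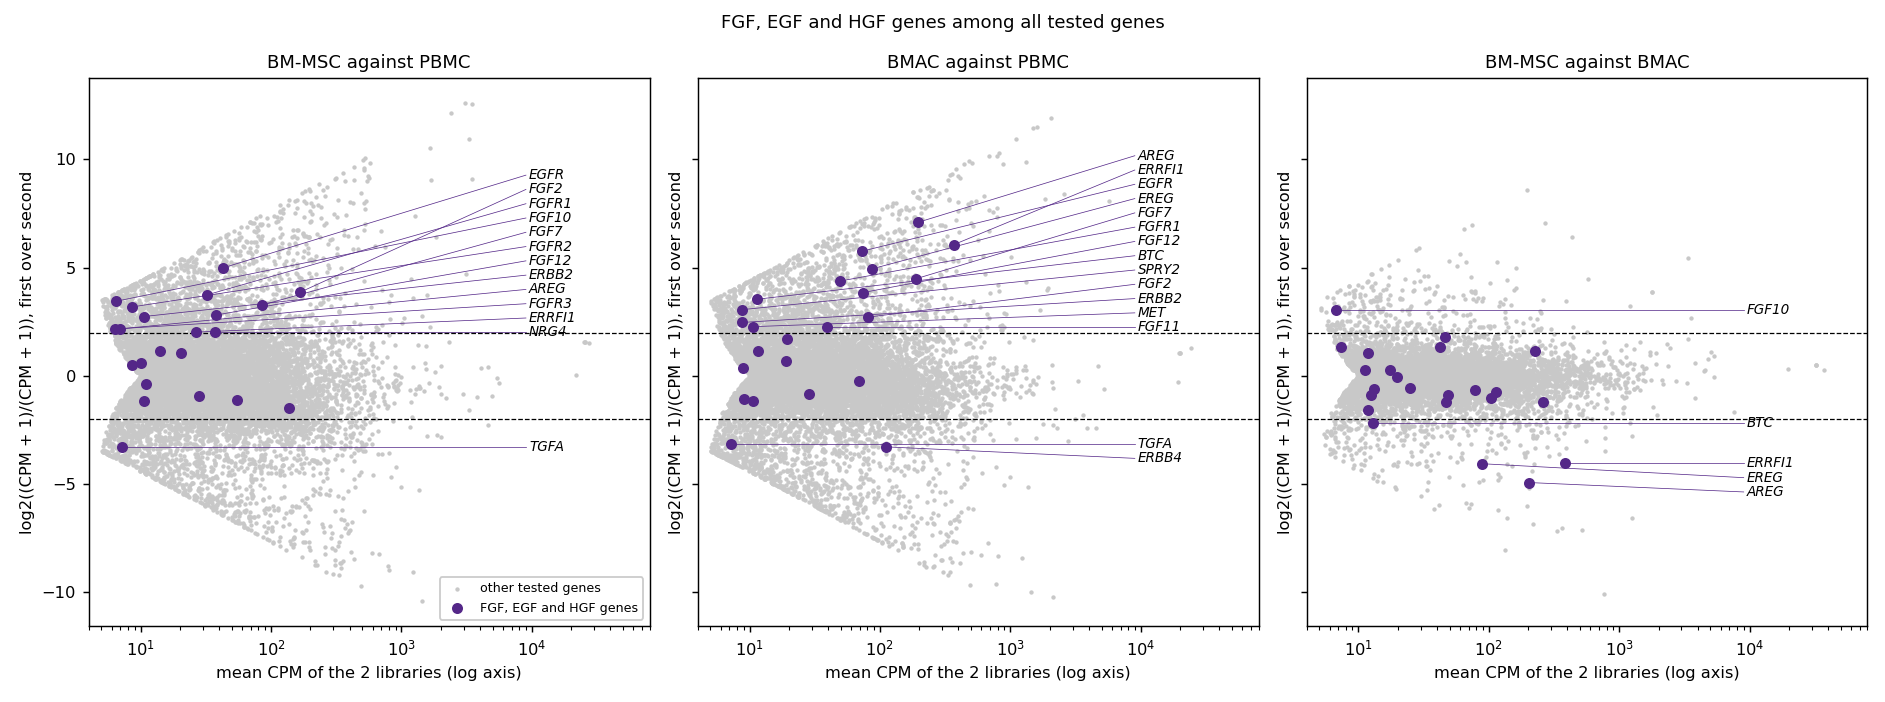
Log2((CPM + 1)/(CPM + 1)) against mean CPM (log axis) for all tested genes (grey) and the FGF, EGF and HGF genes (purple) in the 3 pairs, with the size threshold of 2 as dashed lines and called members named. In BM-MSC against BMAC, AREG, EREG and ERRFI1 lie at -4.93, -4.06 and -4.05, away from the bulk of grey points.

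The surroundings of these systems were read from 6 lists of pathway genes. Among 23 genes for heparan sulfate proteoglycans, their modifying enzymes, FGF coreceptors and FGF binding proteins, 4 were higher in BM-MSC and 5 in BMAC than in PBMC, and none was lower. Of 14 and 15 tested members the median log2 ratios were 0.73 and 0.98, and 28.6% and 33.3% were called higher, against 14.3% and 14.0% of all tested genes. In each pair 3 of the higher genes also reached 10 CPM in PBMC. The syndecan SDC4 stood at 51.9 CPM in BM-MSC, 197 in BMAC and 0.583 in PBMC, and the syndecan SDC2 at 324, 208 and 12.9 CPM. In BM-MSC against BMAC 1 of 15 tested members was called higher (6.67%) and 2 lower (13.3%), against 2.90% and 3.21% of all tested genes. The glypicans GPC4 and GPC6 ran in opposite directions between the marrow libraries, each tested through the higher library alone. GPC4 stood at 8.20 CPM in BM-MSC, 233 in BMAC and 3.37 in PBMC, 28.5-fold lower in BM-MSC than in BMAC (24.0 to 33.9). GPC6 stood at 138 CPM in BM-MSC, 8.13 in BMAC and 19.2 in PBMC, 17-fold higher in BM-MSC than in BMAC (14.2 to 20.5). SULF1, which removes sulfate groups from heparan sulfate, stood at 248 CPM in BM-MSC, 1290 in BMAC and 89.2 in PBMC, and was 5.22-fold lower in BM-MSC than in BMAC (5.05 to 5.39).

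Among 9 sheddases of EGF-like ligands and their partners, ADAM12 and the rhomboid-like protein RHBDF1 were higher than in PBMC in both marrow libraries, and RHBDF2 was lower in BM-MSC. The median log2 ratio of 8 tested members was -0.20 in BM-MSC and 0.01 in BMAC against PBMC. The called genes, 25% higher in each pair and 12.5% lower in BM-MSC, were all tested through 1 library alone. Of all tested genes, 14.3% were called higher and 15.7% lower in BM-MSC, and 14.0% higher and 12.8% lower in BMAC, than in PBMC. ADAM12 stood at 103 CPM in BM-MSC, 383 in BMAC and 4.14 in PBMC. RHBDF1 stood at 49.7, 58.8 and 2.72 CPM and RHBDF2 at 4.45, 6.28 and 24.8 CPM in the same order. ADAM17, the main sheddase of AREG, EREG, HBEGF and TGFA, was at 58.3 CPM in BM-MSC, 59.1 in BMAC and 59.2 in PBMC, although its row overlaps IAH1 (named after its values were seen). None of the 7 list members tested in BM-MSC against BMAC was past the rule, where 6.11% of all tested genes were.

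Among 13 genes for HGF-activating proteases, their inhibitors and the related MSP system, 4 were higher and 2 lower than in PBMC in each marrow library, with 6 tested and medians of 2.78 in BM-MSC and 2.93 in BMAC. In each pair 1 of the 6 reached 10 CPM in both libraries and the other genes were tested through the library where they were high, so these values are a description, beside 14.3% higher and 15.7% lower of all genes in BM-MSC and 14.0% and 12.8% in BMAC. PLAU, urokinase, stood at 131 CPM in BM-MSC, 36.6 in BMAC and 0.129 in PBMC. PLAU overlaps CAMK2G and LOC102160869. PLAT, tissue plasminogen activator, stood at 16.2, 14.3 and 0.518 CPM in BM-MSC, BMAC and PBMC. The lower genes were the membrane protease ST14, at 0.703 CPM in BM-MSC, 0.661 in BMAC and 13.1 in PBMC, and the HGF activator inhibitor SPINT2, at 3.28, 2.84 and 22.5 CPM, whose row overlaps LOC102167359. HGFAC, the serum activator of HGF, held at most 3 counts in any library.

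Receptor-proximal adaptors and kinases were called at shares near or below those of all tested genes. Of 24 genes 3 were higher and 2 lower in BM-MSC, and 3 were higher and 1 lower in BMAC, than in PBMC (medians -0.55 and -0.56 over 20 tested). The shares were 15% higher and 10% lower in BM-MSC, against 14.3% and 15.7% of all tested genes, and 15% higher and 5% lower in BMAC, against 14.0% and 12.8%. GRB2, the adaptor that links receptors to RAS, stood at 23.4 CPM in BM-MSC, 59.4 in BMAC and 219 in PBMC. MAPK3, which encodes the kinase ERK1, stood at 23.5 CPM in BM-MSC, 13.1 in BMAC and 2.59 in PBMC, and the adaptor SHC1, overlapping CKS1B, at 31.7, 21.9 and 4.08 CPM. SHC3, overlapping LOC110256887, stood at 12.8 CPM in BM-MSC, 55.0 in BMAC and 4.60 in PBMC. It was the 1 list member past the rule in BM-MSC against BMAC (4.31-fold lower, 3.71 to 5.02). That was 5.26% of the 19 tested, against 3.21% of all tested genes called lower and 6.11% called either way.

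Other feedback regulators were called in both directions. Of 23 genes 4 were higher and 3 lower in BM-MSC, and 4 were higher and 4 lower in BMAC, than in PBMC (medians 0.19 over 19 tested and 0.32 over 18). The shares were 21.1% higher and 15.8% lower in BM-MSC, against 14.3% and 15.7% of all tested genes, and 22.2% each way in BMAC, against 14.0% and 12.8%. All 4 higher genes in each pair were below 10 CPM in PBMC and so were tested through the marrow library alone. Of the lower genes, 2 in each pair reached 10 CPM in both libraries. The counts and shares are therefore a description. FLRT2, a membrane protein of a family that can bind FGF receptors, stood at 21.1 CPM in BM-MSC, 40.3 in BMAC and 0.971 in PBMC. Its relative FLRT3, overlapping MACROD2, stood at 14.1, 35.9 and 0.194 CPM in the same order. SPRED1, a Sprouty-related inhibitor overlapping LOC106506784, stood at 145 CPM in BM-MSC, 100 in BMAC and 7.83 in PBMC. The ubiquitin ligase CBLB, at 118, 164 and 736 CPM, and the ERK phosphatase DUSP2, at 0.117, 0 and 13.1 CPM, were higher in PBMC. None of the 18 list members tested in BM-MSC against BMAC was past the rule, where 6.11% of all tested genes were.

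Transcripts known to be induced by ERK signalling formed the last list. Of 19 genes 10 were higher and 0 lower in BM-MSC, and 10 were higher and FOS was lower in BMAC, than in PBMC, with medians of 3.46 over 17 tested and 4.51 over 15. All 10 higher genes in each pair were below 10 CPM in PBMC and so were tested through the marrow library alone, where 14.3% and 14.0% of all tested genes were called higher, so the counts and medians are a description. CCND1, cyclin D1, stood at 1080 CPM in BM-MSC, 492 in BMAC and 1.10 in PBMC. IER3 stood at 154 CPM in BM-MSC, 673 in BMAC and 1.42 in PBMC, and the transcription factor MAFF at 29.2, 165 and 1.29 CPM. CYR61, a matricellular protein gene whose row overlaps ZNHIT6, stood at 461, 456 and 0.971 CPM, and PHLDA1 at 48.2, 46.3 and 0.129 CPM. Between the marrow libraries the median over 17 tested was 0.02. In BM-MSC 1 gene was called higher (5.88%) and 2 lower (11.8%), against 2.90% and 3.21% of all tested genes. IER3 was 4.38-fold (4.19 to 4.57) and MAFF 5.66-fold (5.14 to 6.24) lower in BM-MSC than in BMAC, and FOS was 5.80-fold higher in BM-MSC (3.91 to 8.90). IER3 and MAFF thus had the order of AREG, EREG and ERRFI1. ETV1, ETV4, EGR1 and FOSL1 had this order too, but were short of the rule between the marrow libraries. The list as a whole did not share it: 9 of the 17 tested genes had a log2 ratio towards BM-MSC and 8 towards BMAC. ETV5, EGR2, FOSB, FOSL2 and SRF were among those higher in BM-MSC than in BMAC. CCND1 was 2.19-fold higher in BM-MSC than in BMAC (2.14 to 2.25).

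**Figure D5:**
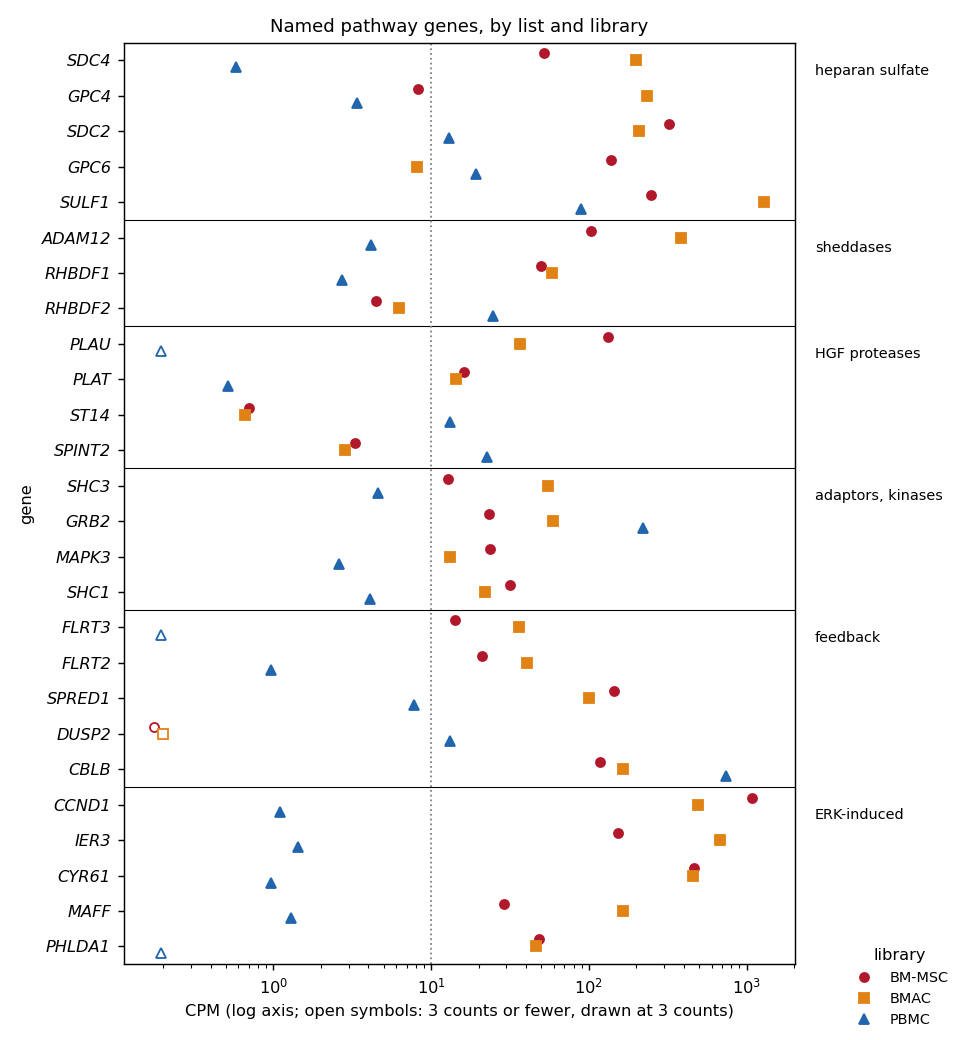
Levels in CPM (log axis) of the pathway genes named in the text by size of difference, at most 5 per list, with 1 symbol per library, open symbols for 3 counts or fewer (drawn at 3 counts) and a dotted line at 10 CPM. GPC4, SULF1, IER3 and MAFF are highest in BMAC, GPC6 and PLAU in BM-MSC, and GRB2 and CBLB in PBMC.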

How the data were processed

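RNA from 1 library each of BM-MSC, BMAC and PBMC was prepared from 500 ng of total RNA with a Lexogen QuantSeq kit, per the labels' protocols. The deposited values are raw counts per gene row: they are whole numbers whose totals differ by library. The tools named are Bowtie2 and bedtools, per the submitters' processing notes, with no versions. The sources used here do not give the genome build, annotation, strand setting or treatment of multiply mapped reads. The 26965 rows were summed by symbol to 26466 symbols; each of the 47 members had a single row. The RefSeq table of Sscrofa11.1, which holds all 47 symbols, was used for names, overlaps and neighbours only. A row was named as overlapping when it held at least 25% of the gene's counts over the 3 libraries, which concerned 8 members.

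Levels were CPM by library total. A gene was tested in a pair when 10 CPM and 10 counts were reached in 1 of its libraries, and called at a log2 ratio of at least 2 in size with a pseudocount of 1 CPM. Printed folds are ratios of CPM without pseudocount; against 0 counts they take 0 as 3 counts per library. Without molecular identifiers, intervals and floors cover counting error only. All members were accounted for, and up to 5 called genes of each pathway list with the largest log2 ratio were named. Of these, 2 genes stay in the counts and are not reported here by name. Members, lists and the size rule were chosen with earlier results of these data known. The rule and intervals were also run on simulated Poisson counts. These hold no variation between animals or libraries, so that run does not check the calls made here. Alternatives used TMM (edgeR 4.0.16), median-of-ratios factors (DESeq2 1.42.0), other pseudocounts, floors and thresholds. Python 3.11.15, scipy 1.17.1 and R 4.3.3 were used.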

Additional observations from a re-analysis of the deposited data

How the results depend on the processing

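No paired analysis was possible because each population has 1 library, and for the same reason no library could be left out. The 6 counts of called members were recomputed under 12 other settings, and 59 recomputed counts stayed within 1.5 times the count by the rule above, while 13 moved further. With a pseudocount of 5 CPM, 5 members were higher and 0 lower in BM-MSC against PBMC, 1 was lower in BMAC against PBMC, and 0 were higher in BM-MSC against BMAC. A floor of 50 CPM gave 6, 0, 1 and 0 for the same counts. TGFA and FGF10 were the genes lost from the counts that fell to 0. With a log2 ratio of at least 1, lower members numbered 4 in BM-MSC and 4 in BMAC against PBMC, and in BM-MSC against BMAC 6 were higher and 8 lower. Without overlapping genes FGF10 left, so 0 were higher in that pair. The same setting removed FGF2, FGF7, FGF10 and NRG4 from BM-MSC against PBMC, where higher members fell from 12 to 8. It removed FGF2, FGF7 and FGF11 from BMAC against PBMC, where they fell from 13 to 10. No paracrine FGF stayed among the called members there. Requiring an interval wholly beyond 4-fold removed ERRFI1 and NRG4 from BM-MSC against PBMC and left the other counts as they were. No called member changed sign under any of the 12 settings. Depth limits genes under about 10 counts, such as FGF21 and FGFR4, for which neither an order nor a fold was read.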

Other observations

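Genes beside the EGFR ligand cluster of chromosome 8 differed in their order of libraries (these neighbours were chosen after their values were seen, and the order of genes is that of the RefSeq assembly Sscrofa11.1). EPGN, which encodes the EGFR ligand epigen and lies next to EREG, held 22 counts in BM-MSC, 89 counts in BMAC and 14 counts in PBMC. It was 4.57-fold lower in BM-MSC than in BMAC (2.84 to 7.65) and stayed below 10 CPM. MTHFD2L, a gene of mitochondrial folate metabolism beyond EPGN, stood at 11.1 CPM in BM-MSC, 25.5 in BMAC and 2.91 in PBMC, 2.31-fold lower in BM-MSC than in BMAC (1.93 to 2.76). On the other side, PARM1, which follows BTC, stood at 2.17 CPM in BM-MSC, 1.72 in BMAC and 99.1 in PBMC. RCHY1, a ubiquitin ligase gene beyond PARM1, stood at 22.2, 19.4 and 32.8 CPM. The 4 ligand genes and MTHFD2L were thus highest in BMAC, and the next genes on the BTC side were highest in PBMC.

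MST1R, the receptor of the HGF-related protein MSP, held 5 counts in BM-MSC, 52 counts in BMAC and 2 counts in PBMC, below 10 CPM in each (chosen after its values were seen). It was 11.7-fold lower in BM-MSC than in BMAC (4.72 to 37.7), and MET, its paralogue, was also highest in BMAC. The order of BM-MSC and PBMC was not read for MST1R, given its 5 and 2 counts there. MST1, the MSP gene, whose row overlaps RNF123, held 13 counts in BM-MSC, 4 counts in BMAC and 5 counts in PBMC.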
